A study of Mus musculus with 6 samples.

Results

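The aminoacyl-tRNA synthetases and the scaffold proteins that hold some of them in a complex are the 39 genes described here, of the 55487 genes in the deposited count table. They comprise 20 cytosolic enzyme genes, 16 mitochondrial enzyme genes and 3 scaffold genes, Aimp1, Aimp2 and Eef1e1. The members were chosen by their family names, with results of this same comparison already known. Their calls and fold changes between the groups are therefore a description and support no statement about the family. All 39 symbols were found in the table. Tarsl2, a gene related to Tars, was not on the list and is given separately.

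The study compared macrophages grown from 2 kinds of cell sorted from mouse bone marrow, TpMos and mature Ly6Chi monocytes, with 3 libraries in each group. Both groups were cultured for 7 days in medium with CSF-1, the growth factor that sustains macrophages, so all 6 libraries come from cells that had received it. Its concentration in each sample, the mouse strain, the age of the animals and any genotype are not given in the sources used here. Whether the 3 libraries of a group stem from different animals, different dishes or 1 RNA sample is not stated, so the p-values reflect the spread among libraries, part or all of which may be technical.

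A synthetase joins one amino acid to its matching tRNA, and the charged tRNA then delivers it to the ribosome. Cytosolic and mitochondrial protein synthesis mostly use separate sets of enzymes encoded by separate nuclear genes, although Gars and Kars each serve both compartments. Several cytosolic enzymes sit together in the multisynthetase complex around the scaffold proteins. In many mammalian cells a shortage of amino acids activates the kinase GCN2 (gene Eif2ak4), which phosphorylates eIF2α, and the transcription factor ATF4 then drives genes of amino acid supply, cytosolic synthetase genes among them.

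Transcripts of most cytosolic synthetases, 14 of 20 genes, were called higher in TpMo-derived macrophages (edgeR adjusted p under 0.05). Over all genes tested, 6.54% were called higher, and 3 of the 14 calls, Sars, Farsb and Kars, were lost under some alternative settings. Summed over the 20 cytosolic genes, the TpMo-derived libraries held 4457, 4189 and 4380 CPM (read counts scaled to the same library total in every sample, with TMM factors that correct for composition). The Ly6Chi-derived libraries held 3063, 2838 and 2906 CPM. The means were 4342 ± 138 CPM against 2936 ± 116 CPM (SD, n = 3 each), 1.48-fold higher in TpMo-derived macrophages, and the groups did not overlap. Summed over the 16 mitochondrial genes, the TpMo-derived libraries held 593, 572 and 548 CPM and the Ly6Chi-derived libraries 437, 495 and 498 CPM. The means were 571 ± 22.6 CPM and 477 ± 34.6 CPM (SD), 1.20-fold higher in TpMo-derived macrophages, again without overlap of the groups. Of these sums, Lars2 alone held 155 ± 14.1 CPM in TpMo-derived and 99.45 ± 16.05 CPM in Ly6Chi-derived libraries (SD). The other 15 mitochondrial genes were not called, and 6 had a negative log2 fold change, so the sum does not describe the class gene by gene. In bulk RNA, a change in the number of cells that carry a transcript and a change in its amount per cell cannot be told apart.

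Of the 39 members, 15 were called higher in TpMo-derived macrophages and 0 lower (edgeR's quasi-likelihood test at an adjusted p under 0.05, by the Benjamini-Hochberg method over 13140 genes tested). Among all genes tested, 6.54% were called higher and 5.79% lower. At an unadjusted p under 0.05, 2 members were lower, Mars2 and Hars2, and DESeq2 and limma-voom each called 0 members lower. In 22 members all TpMo-derived libraries lay above all Ly6Chi-derived ones, in 0 they lay below, and in 17 the groups overlapped. Among all genes tested, 15.3% lay entirely above and 15.2% entirely below. The median log2 fold change, TpMo-derived over Ly6Chi-derived, was 0.33 over the members and 0.0054 over all genes tested. Nothing is read from these contrasts of members and background, because the members were chosen with them in view. All 39 members passed the filter on low counts, and the lowest count of any member in any library was 111.

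**Figure D1:**
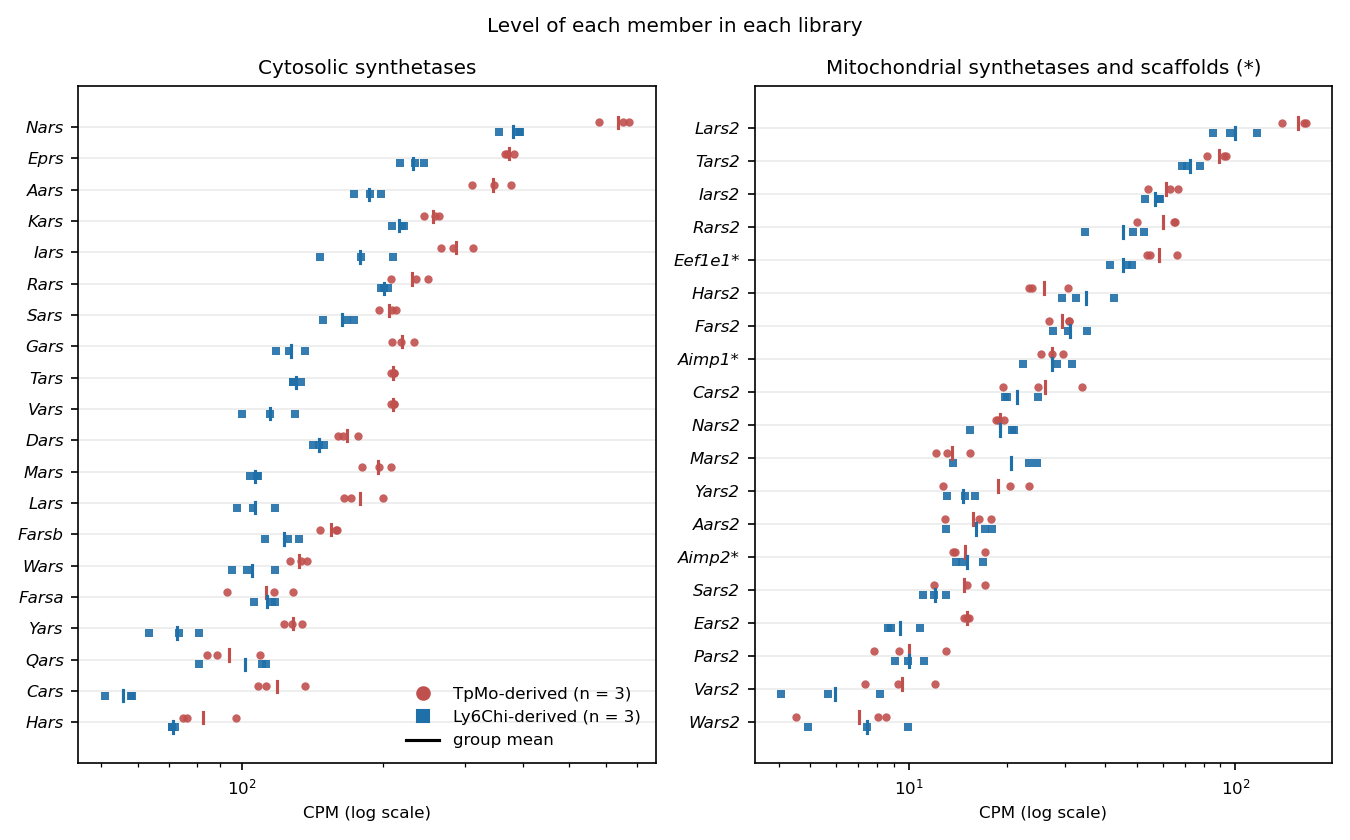
Level of each of the 39 members in each library, in TMM-scaled CPM on a log scale, with circles for the 3 TpMo-derived and squares for the 3 Ly6Chi-derived libraries and a vertical bar at each group mean. In Mars, Cars and Yars the circles stand well to the right of the squares, whereas in most mitochondrial members the symbols interleave.

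The libraries held 23765773 to 33042094 counts on genes, and the members took 0.482% to 0.508% of the counts of a TpMo-derived library and 0.346% to 0.368% of those of a Ly6Chi-derived one. The cells carried macrophage transcripts in both groups: 7 markers (Adgre1, Csf1r, Cd68, Fcgr1, Mertk, Itgam and Lyz2) summed to 34710 to 37270 CPM where the cells came from TpMos and 28600 to 31600 CPM where they came from Ly6Chi monocytes. Lyz2 made up most of each sum, and single markers moved with the groups: Fcgr1 (3.88-fold), Adgre1 (2.29-fold) and Csf1r (1.42-fold) were called higher in TpMo-derived macrophages and Itgam (0.809-fold) lower (edgeR). The part of these marker differences in the levels of the synthetases was not tested. Neutrophil and precursor markers summed to at most 2.45 CPM in any library, with Ly6g and Mpo at 0, and dendritic cell markers to at most 0.781 CPM, with Flt3, Ccr7 and Siglech at 0. Lymphocyte markers reached 0.174 CPM in 1 group and 0 in the other, and erythroid markers stood at 0. Of 3 stromal markers, Col1a1 and Pdgfra stood at 0 and Pecam1 at 0.694 to 1.17 CPM against 0 to 0.0622 CPM. At these low levels Pecam1 was called higher in TpMo-derived macrophages, with a log2 fold change of 5.06 ± 1.35 (SE, edgeR adjusted p = 0.0356). The sums of the markers of other cell types were below the level of every synthetase member in every library.

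Of the 20 cytosolic genes, 14 were called higher in TpMo-derived macrophages, beside 6.54% of all genes tested. The log2 fold changes of these 14 ran from 0.24 to 1.10. The gene with the largest difference was Cars (chr7:143557230-143600090, minus strand, GRCm38), which encodes the cysteinyl enzyme. Its TpMo-derived libraries stood at 136, 113 and 108 CPM and its Ly6Chi-derived libraries at 58.2, 57.9 and 50.9 CPM, so every TpMo-derived value was well above every Ly6Chi-derived one. Its log2 fold change was 1.10 ± 0.12 (SE; edgeR adjusted p = 2.47e-04). Mars (chr10:127296221-127311786, minus strand) encodes the methionyl enzyme, which also charges the initiator tRNA, and had the smallest p of the members. Its libraries stood at 208, 197 and 181 CPM against 108, 108 and 104 CPM, with the Ly6Chi-derived values close together. The log2 fold change was 0.87 ± 0.08 (SE; edgeR adjusted p = 1.24e-04).

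Aars (chr8:111033144-111057664, plus strand), the alanyl enzyme gene, stood at 377, 310 and 347 CPM in TpMo-derived libraries. In Ly6Chi-derived libraries it stood at 199, 174 and 188 CPM, and the log2 fold change was 0.88 ± 0.09 (SE). Of the exon bases of Aars, 15.1% are shared with Exosc6 and Gm24103, and reads there were counted for none of them. Vars, the valyl enzyme gene (chr17:35000987-35016322, plus strand), stood at 211, 212 and 208 CPM against 130, 100 and 115 CPM. The TpMo-derived values of Vars were almost equal and the Ly6Chi-derived ones were more spread. Its log2 fold change was 0.87 ± 0.10 (SE). Yars (chr4:129189760-129219607, plus strand) encodes the tyrosyl enzyme and stood at 134, 128 and 123 CPM against 80.8, 73.5 and 63.5 CPM. Yars had a log2 fold change of 0.82 ± 0.11 (SE). Gars, the glycyl enzyme gene of both compartments (chr6:55038007-55079500, plus strand), stood at 233, 209 and 219 CPM against 126, 118 and 137 CPM, and its log2 fold change was 0.79 ± 0.08 (SE). The groups of all 4 genes stood apart, and the edgeR adjusted p ran from 1.58e-04 for Aars to 8.70e-04 for Yars.

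Nars, the asparaginyl enzyme gene on chromosome 18, was the most abundant member in CPM. Its TpMo-derived libraries stood at 674, 580 and 654 CPM and its Ly6Chi-derived libraries at 392, 355 and 394 CPM, without overlap. Its log2 fold change was 0.74 ± 0.07 (SE). Lars, the leucyl enzyme gene, stood at 171, 166 and 201 CPM against 118, 106 and 97.5 CPM, and its log2 fold change was 0.74 ± 0.11 (SE). Tars (chr15:11382301-11399665, minus strand) encodes the threonyl enzyme and varied little between libraries of a group, at 211, 211 and 209 CPM against 134, 129 and 129 CPM. Its coefficient of variation was 0.681% in TpMo-derived and 2.42% in Ly6Chi-derived libraries, and its log2 fold change was 0.69 ± 0.07 (SE). Eprs (chr1:185363044-185428360, plus strand) encodes one chain with both the glutamyl and the prolyl activity. It stood at 383, 368 and 366 CPM against 245, 218 and 234 CPM, and its log2 fold change was 0.68 ± 0.07 (SE). Iars, the isoleucyl enzyme gene (chr13:49682100-49734267, plus strand), stood at 266, 283 and 312 CPM against 210, 147 and 180 CPM. The Ly6Chi-derived values of Iars spread the most among the called cytosolic genes, with a coefficient of variation of 17.8%, and its log2 fold change was 0.68 ± 0.12 (SE). The edgeR adjusted p of these 5 genes ran from 1.63e-04 for Nars to 0.00536 for Iars.

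The remaining 3 called cytosolic genes had smaller differences, and each lost its call under some settings. Sars, the seryl enzyme gene, which also charges the selenocysteine tRNA, stood at 196, 209 and 214 CPM against 168, 174 and 149 CPM. Its log2 fold change was 0.34 ± 0.08 (SE; edgeR adjusted p = 0.0248), and the highest adjusted p was 0.0976 over 13 alternative settings, of which 5 ended the call. Farsb encodes the beta chain of the phenylalanyl enzyme and stood at 147, 160 and 159 CPM against 132, 125 and 112 CPM. Its log2 fold change was 0.33 ± 0.09 (SE; edgeR adjusted p = 0.0399), and the call was lost whichever of the 6 libraries was left out, with an adjusted p of up to 0.14. Kars, the lysyl enzyme gene of both compartments, had a log2 fold change of 0.24 ± 0.07 (SE; edgeR adjusted p = 0.0485). Its call too was lost whichever library was left out, with an adjusted p of up to 0.168.

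The other 6 cytosolic genes were not called. Wars encodes the tryptophanyl enzyme, and its transcript is known to be induced by interferon. It stood at 138, 127 and 134 CPM against 103, 95.5 and 117 CPM, without overlap, with a fold change of 0.33 ± 0.10 (log2, SE; edgeR adjusted p = 0.0573). Of 13 alternative settings, 5 called Wars higher. The histidyl gene Hars, the arginyl gene Rars and the aspartyl gene Dars had log2 fold changes of 0.22 ± 0.12, 0.20 ± 0.08 and 0.20 ± 0.08 (SE), with groups that did not overlap and edgeR adjusted p of 0.327, 0.161 and 0.146. Only in Qars, the glutaminyl gene, and Farsa, the gene of the alpha chain of the phenylalanyl enzyme, did the groups of cytosolic members overlap. Qars had a log2 fold change of -0.11 ± 0.15 (SE) and Farsa of -0.0077 ± 0.12 (SE). The phenylalanyl enzyme needs both chains, and Farsa stood at 93.2, 117 and 128 CPM against 116, 106 and 118 CPM, where Farsb, above, had all 3 TpMo-derived libraries higher. Whether Farsa and Farsb differ in their response was not tested.

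**Figure D2:**
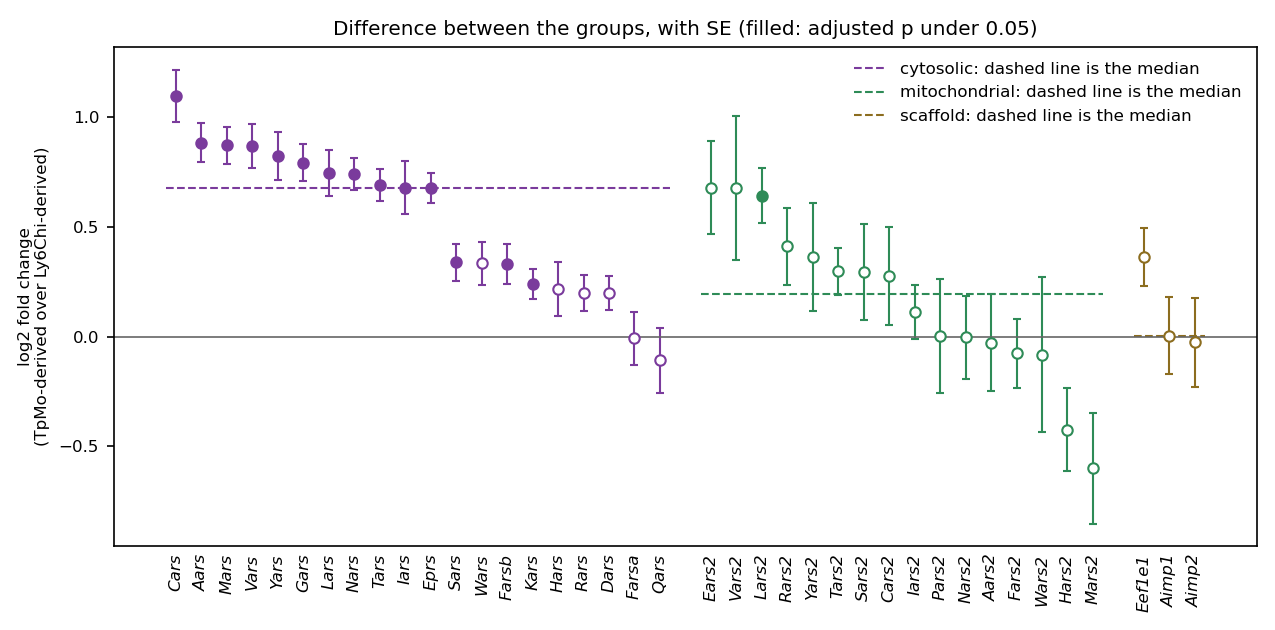
Log2 fold change of each member, TpMo-derived over Ly6Chi-derived macrophages, with its SE as bars, filled where the edgeR adjusted p was under 0.05, and a dashed line at the median of each class. The 11 cytosolic genes from Cars to Eprs lie between 0.68 and 1.10, the next cytosolic gene lies at 0.34, and the mitochondrial genes spread on both sides of 0 with longer bars.

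Per kilobase of annotated exon, which allows levels of different genes to be compared, Nars was the highest cytosolic member in both groups. Its level was 146 ± 11.4 CPM per kilobase in TpMo-derived and 87.3 ± 5.02 CPM per kilobase in Ly6Chi-derived macrophages (SD, n = 3 each). Rars, at 71.7 ± 6.64 CPM per kilobase, and Gars, at 70.6 ± 3.85 CPM per kilobase, followed in TpMo-derived macrophages and did not differ beyond their spread. In Ly6Chi-derived macrophages Rars stood at 62.4 ± 1.07 CPM per kilobase and Gars at 40.7 ± 2.96 CPM per kilobase, so the 2 genes stood apart there. Rars in single libraries stood at 250.7, 208 and 235 CPM against 198, 201 and 205 CPM. The lowest cytosolic levels were those of Cars in Ly6Chi-derived macrophages, at 8.46 ± 0.633 CPM per kilobase, and of Qars in TpMo-derived macrophages, at 14.3 ± 2.08 CPM per kilobase. The exon length is the union of all annotated exons of a gene, so genes with rarely used exons appear lower per kilobase than they would by their main transcript.

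Short promoter stretches of called cytosolic members are shown because ATF4 binds, as a dimer with C/EBP proteins, to sites close to the letters TGATGCAA. The windows are those of RefSeq on GRCm38.p6 and reach from 250 bases before to 50 bases after each start. Of the 39 members, 30 had a window, and Cars, Hars, Lars, Nars, Rars, Vars, Wars, Hars2 and Pars2 are named only. Both strands were searched for TGATGCAA and for TGATGNAA, which contains it. Each line gives 60 bases, 5′ to 3′ on the strand of the gene, with the match in capitals. TTGCATCA and TTTCATCA are such matches read on the opposite strand.
Aars, chr8:111033704-111033763 (plus strand): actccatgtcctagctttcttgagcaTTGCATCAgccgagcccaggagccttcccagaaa
Aars, chr8:111033807-111033866 (plus strand): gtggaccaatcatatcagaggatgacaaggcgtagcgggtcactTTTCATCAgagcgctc
Iars, chr13:49682095-49682154 (plus strand): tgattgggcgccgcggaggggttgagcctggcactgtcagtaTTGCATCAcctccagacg
Tars, chr15:11399640-11399699 (minus strand): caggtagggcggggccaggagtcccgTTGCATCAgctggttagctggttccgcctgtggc
Yars, chr4:129189868-129189927 (plus strand): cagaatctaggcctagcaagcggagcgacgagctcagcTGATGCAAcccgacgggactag
Gars, chr6:55037945-55038004 (plus strand): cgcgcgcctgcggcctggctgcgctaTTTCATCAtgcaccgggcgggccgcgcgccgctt
Mars, chr10:127311777-127311836 (minus strand): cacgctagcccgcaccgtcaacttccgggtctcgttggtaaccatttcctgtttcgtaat

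Counted from the first transcribed base as 0, the match to TGATGCAA began at -112 in Aars, -15 in Tars, 3 in Yars and 7 in Iars. The further matches to TGATGNAA began at 9 in Aars and -30 in Gars. The lines show every match found in the members, and Mars, the member with the smallest p, is shown for comparison. Mars, Eprs, Farsb, Kars and Sars, all called, held neither set of letters, and nor did the uncalled Dars, Farsa and Qars. TGATGCAA was present in 4 of the 13 cytosolic members with a window, in 0 of the 14 mitochondrial members and in 0 of the 3 scaffold genes. Counted in the same way per gene, it was present in 279 of all 27025 genes with a window, or 1.03%. TGATGNAA was present in 5 of the same 13 cytosolic members and in 0 of the mitochondrial and scaffold members with a window. Over all genes with a window, TGATGNAA was present in 1219, or 4.51%. Called and uncalled members are named above, but whether they differ in matches was not tested. The calls were known when the members were chosen, and several cytosolic genes had no window. A match is a run of letters and not a shown binding site, and binding was not measured here.

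In the multisynthetase complex, 5 of the 8 enzyme genes were called higher, Eprs, Iars, Lars, Mars and Kars, and Rars, Dars and Qars were not. The median log2 fold change of the 8 was 0.46, and that of the 12 cytosolic genes outside the complex, 9 of them called, was 0.72. These counts, and those by class below, stand beside 6.54% of all genes tested called higher. The 3 scaffold genes had 0 calls in edgeR, DESeq2 and limma-voom. Eef1e1, which encodes AIMP3, stood at 53.7, 54.9 and 66.4 CPM against 41.4, 46.4 and 48.2 CPM. Its groups did not overlap, with a log2 fold change of 0.36 ± 0.13 (SE; edgeR adjusted p = 0.120), and it was the only scaffold gene with an unadjusted p under 0.05. Aimp1 and Aimp2, the other scaffold genes, had overlapping groups and log2 fold changes of 0.0041 ± 0.18 and -0.026 ± 0.20 (SE). Of the exon bases of Aimp2, 29.4% are shared with its neighbour Eif2ak1, where reads were not counted for either gene. Synthetases fall into class I and class II by the fold of their catalytic domain, and Eprs, which has a domain of each class, was counted in class I. Calls were 7 of 10 in each class, with median log2 fold changes of 0.71 in class I and 0.34 in class II. Differences between these overlapping groupings were not tested.

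Of the 16 mitochondrial genes, 1 (6.25%) was called higher by edgeR, near the 6.54% of all genes tested, and 3 were called higher by DESeq2 and 1 by limma-voom. None of the 3 tools called one lower. The called gene, Lars2 (chr9:123366927-123462666, plus strand), encodes the mitochondrial leucyl enzyme. It stood at 162, 164 and 139 CPM in TpMo-derived libraries and at 85.3, 96.2 and 117 CPM in Ly6Chi-derived ones, and the lowest TpMo-derived value lay above the highest Ly6Chi-derived one. Its log2 fold change was 0.64 ± 0.12 (SE; edgeR adjusted p = 0.00801). Lars2 kept its call in all 13 alternative settings, with an adjusted p of up to 0.0483.

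Ears2 and Tars2, the glutamyl and threonyl mitochondrial genes, were the other 2 members of this class whose groups did not overlap, and DESeq2 alone of the tools called them. With Lars2, 3 of the 16 genes thus lay entirely above, where 15.3% of all genes tested did, and nothing is read from this count. Ears2 stood at 15.1, 15.3 and 14.8 CPM against 8.64, 10.8 and 8.83 CPM, and its log2 fold change was 0.68 ± 0.21 (SE; edgeR adjusted p = 0.0677). Tars2 stood at 93.4, 81.8 and 92.6 CPM against 71.2, 68.5 and 78.2 CPM, and its log2 fold change was 0.30 ± 0.11 (SE; edgeR adjusted p = 0.107). The mitochondrial methionyl gene Mars2 had the lowest log2 fold change of all members, -0.60 ± 0.25 (SE; edgeR adjusted p = 0.172). It stood at 12.2, 15.4 and 13.1 CPM in TpMo-derived libraries and at 24.6, 23.4 and 13.6 CPM in Ly6Chi-derived ones, so the groups overlapped through 1 Ly6Chi-derived library. Without that library, Ly6Chi-derived replicate 3, Mars2 was called lower, at -0.83 (edgeR adjusted p = 0.0496). Hars2, the histidyl gene, had a log2 fold change of -0.42 ± 0.19 (SE; edgeR adjusted p = 0.202). Hars and Hars2 lie head to head and share exon bases, 7.97% of those of Hars and 4.56% of those of Hars2.

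The remaining 11 mitochondrial genes overlapped between the groups. Vars2 had a log2 fold change of 0.68 ± 0.33, Rars2 of 0.41 ± 0.18, Yars2 of 0.36 ± 0.25, Sars2 of 0.30 ± 0.22, Cars2 of 0.28 ± 0.22 and Iars2 of 0.11 ± 0.12 (SE). Iars2 shares 24.2% of its exon bases with 2010103J01Rik and Rab3gap2, and Fars2 shares 10.7% with Lyrm4 and Nrn1. The log2 fold changes of Fars2, Wars2, Aars2, Nars2 and Pars2 lay between -0.082 and 0.0021, and each changed sign under at least 1 alternative setting. Per kilobase of exon, Rars2 was the highest mitochondrial member, at 21.7 ± 3.17 CPM per kilobase in TpMo-derived and 16.3 ± 3.36 CPM per kilobase in Ly6Chi-derived macrophages. Its libraries stood at 65.6, 50.05 and 65.0 CPM against 34.8, 52.5 and 48.6 CPM, with overlap. Lars2 followed at 14.0 ± 1.27 and Tars2 at 12.9 ± 0.935 CPM per kilobase in TpMo-derived macrophages, which did not differ beyond their spread. Summed per kilobase, the mitochondrial genes stood at 97.1 ± 4.92 CPM per kilobase in TpMo-derived macrophages, where the cytosolic genes stood at 910 ± 30.7 CPM per kilobase.

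The mitochondrial members were measured less precisely than the cytosolic ones. Over the libraries of a group, their median coefficient of variation was 17.1%, against 6.89% for cytosolic members. The median SE of their log2 fold changes was 0.22, against 0.09. Their median level was 18.03 CPM, against 160 CPM. Ears2 and Vars2 had log2 fold changes equal to the cytosolic median, 0.68, with SE of 0.21 and 0.33, and were not called. The median of the mitochondrial members was 0.19, and 10 mitochondrial genes had a positive and 6 a negative value. Whether the cytosolic and mitochondrial classes differ was not tested.

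For 13 amino acids, 1 cytosolic gene and 1 mitochondrial gene could be set side by side. The log2 fold change was larger in the cytosolic gene for 12 of them and smaller for 1, arginine, with 0.20 for Rars and 0.41 for Rars2. The widest gap was in the methionyl pair, 0.87 for Mars and -0.60 for Mars2, followed by the alanyl pair, 0.88 for Aars and -0.028 for Aars2. In the leucyl pair the values were close, 0.74 for Lars and 0.64 for Lars2, and the seryl genes had 0.34 for Sars and 0.30 for Sars2. Eprs, which charges both glutamate and proline tRNA, had 0.68, whereas its mitochondrial counterparts had 0.68 for Ears2 and 0.0021 for Pars2. These gaps carry the SE of both genes and were not tested.

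**Figure D3:**
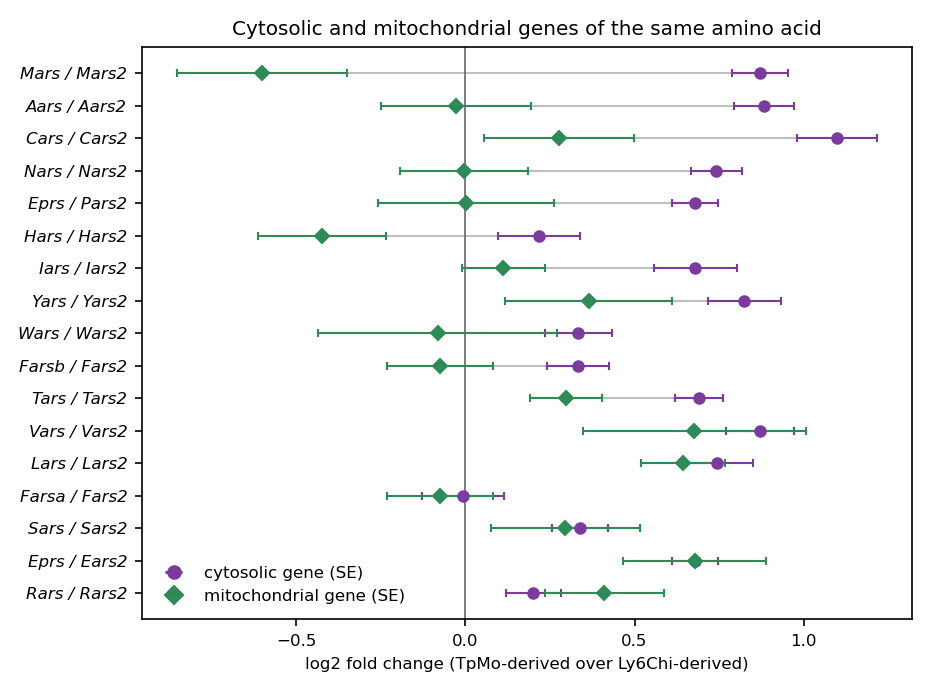
Log2 fold change, TpMo-derived over Ly6Chi-derived macrophages, of the cytosolic gene (circle) and the mitochondrial gene (diamond) for the same amino acid, with SE as bars, ordered by the gap between them. Eprs and Fars2 appear in 2 rows each, because Eprs has 2 mitochondrial counterparts and Fars2 has 2 cytosolic ones, Farsa and Farsb. The circle lies to the right of the diamond in the methionyl row and to its left in the arginyl row at the bottom.

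Genes that act with the synthetases were described from lists chosen by function, with earlier results of these data known. The counts of each list below stand beside 6.54% of all genes tested called higher and 5.79% called lower. Of 22 tested genes of the ATF4 response, 14 were called higher in TpMo-derived macrophages and 0 lower (edgeR), with a median log2 fold change of 1.09. The other 8 were not called, and 2 of them had negative values, Ppp1r15a at -0.26 ± 0.17 and Ddit4 at -0.24 ± 0.86 (log2, SE). Amino acid transporters, among them Slc7a11, which was called lower, were not on this list and are given below. Atf4 itself stood at 183, 215 and 203 CPM against 109, 88.7 and 102 CPM, and its log2 fold change was 1.00 ± 0.10 (SE; edgeR adjusted p = 1.86e-04). Asns, which makes asparagine, had a log2 fold change of 1.97 ± 0.10 (SE). The mitochondrial folate enzyme gene Mthfd2 had 1.42 ± 0.08, the proline synthesis gene Aldh18a1 had 1.47 ± 0.11, and the serine hydroxymethyltransferase gene Shmt2 had 1.19 ± 0.10 (SE). Ddit3, which encodes CHOP, had 0.84 ± 0.18 (SE; edgeR adjusted p = 0.0122), and its call was lost without TpMo-derived replicate 3, at an adjusted p of 0.0522. Mars and Ddit3 are neighbours whose exons overlap by 1.99% of the exon bases of Mars. A further 3 listed genes, Cebpb, Cth and Stc2, were not tested because their counts were too low.

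Of 13 genes of the eIF2 kinases, eIF2 and eIF2B, 3 were called higher and 0 lower (edgeR), with a median log2 fold change of 0.12. They were the interferon-induced kinase gene Eif2ak2, at 0.57 ± 0.13, the phosphatase subunit gene Ppp1r15b, at 0.43 ± 0.11, and the eIF2B subunit gene Eif2b5, at 0.58 ± 0.15 (SE), and settings that left out libraries gave as few as 0. Eif2ak4, the gene of GCN2, had 0.016 ± 0.19 (SE) and was not called. This is a transcript level, and neither the activity of the kinase nor the phosphorylation of eIF2α was measured here. Amino acid transporters divided: of 16 tested, 8 were called higher and 1 lower. The cationic amino acid transporter gene Slc7a1 had a log2 fold change of 1.71 ± 0.13, the large neutral transporter gene Slc7a5 of 2.36 ± 0.35 and its relative Slc7a8 of 0.40 ± 0.06 (SE). Slc7a11, the cystine transporter gene, fell by 2.73 ± 0.35 (SE) on the log2 scale, from 12.3, 22.9 and 32.9 CPM in Ly6Chi-derived to 3.56, 3.49 and 3.21 CPM in TpMo-derived libraries.

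Of 7 cytosolic elongation factor genes, which act on charged tRNA or beside it, 3 were called higher and 0 lower (edgeR). They were Eif5a, at a log2 fold change of 0.40 ± 0.06, Eef1a1, which delivers charged tRNA to the ribosome, at 0.33 ± 0.07, and Eef1g, at 0.29 ± 0.07 (SE), and some settings kept only 1 of the list. Of 21 genes of mitochondrial translation and tRNA maturation, 1 was called higher and 0 lower, with a median log2 fold change of 0.017. The called gene, Trmu, which modifies mitochondrial tRNA, had 1.21 ± 0.29 (SE; edgeR adjusted p = 0.0237), and some settings called 0 of the list. A list of 5 genes held enzymes that clear mischarged tRNA and Ptrh2, whose enzyme acts on tRNA still bound to a peptide. Of these 5, 0 were called by edgeR, DESeq2 or limma-voom, and 0 had an unadjusted p under 0.05. Their median level was 8.17 CPM and the median SE of their log2 fold changes was 0.30, so 0 calls do not show that they were unchanged. Tarsl2 had a log2 fold change of -0.68 ± 0.65 (SE) and was not called.

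For each of these lists with 0 called lower, DESeq2 and limma-voom also called 0 lower, and 0 genes were lower at an unadjusted p under 0.05. Transcripts outside the tRNA charging pathway moved with the groups as well. Of 10 interferon-induced genes, listed because Wars is known to respond to interferon, 8 were called higher and 0 lower, with a median log2 fold change of 2.78. Ifit3 had a log2 fold change of 4.97 ± 0.18, Ifit1 of 3.50 ± 0.30, Ifit2 of 3.08 ± 0.28 and Irf7 of 2.91 ± 0.22 (SE), where Wars had 0.33. Of 8 mitotic genes, 7 were called lower in TpMo-derived macrophages and 0 higher, by each of edgeR, DESeq2 and limma-voom, and 5 to 8 were called lower over all alternative settings. Plk1 had -1.84 ± 0.14, Cenpe -1.58 ± 0.18, Ccnb1 -1.50 ± 0.25 and Bub1 -1.30 ± 0.19 (SE). With no count filter Ccnb1 lost its call, at an edgeR adjusted p of 0.10, and 5 of the list were called. Their part in the levels of the synthetases was not tested.

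**Figure D4:**
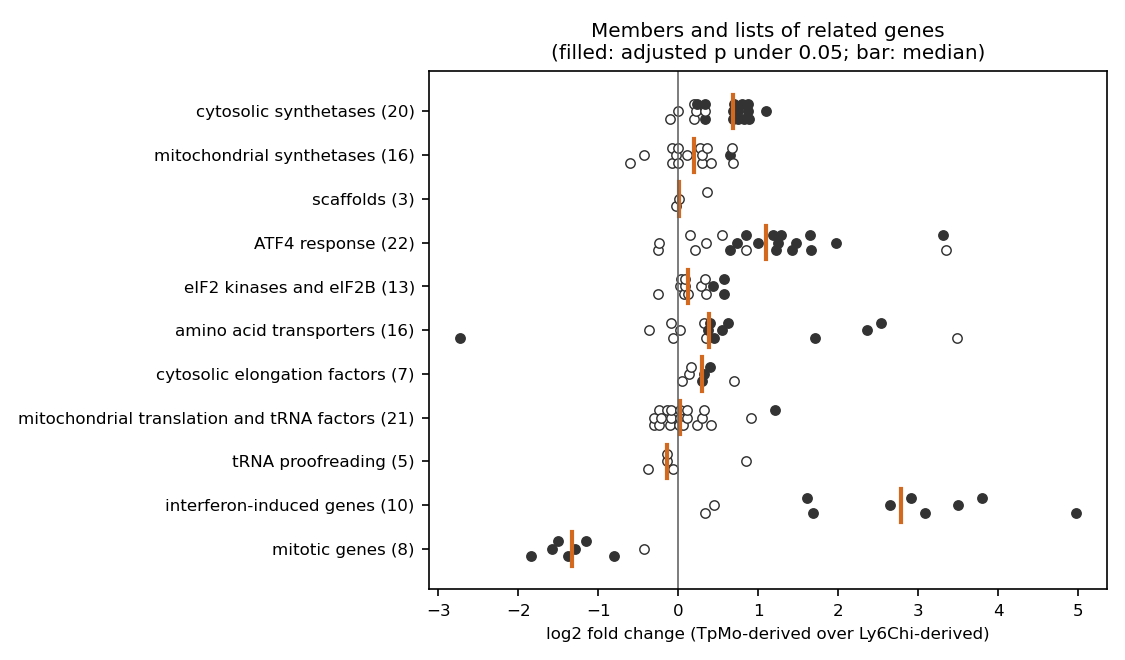
Log2 fold change, TpMo-derived over Ly6Chi-derived macrophages, of each tested gene in the 3 classes of members and in 8 lists of related genes, filled where the edgeR adjusted p was under 0.05, with a bar at the median of each list and the number of genes tested in parentheses. The cytosolic synthetases centre on 0.68 and the ATF4 response on 1.09, whereas the mitochondrial translation list centres on 0.017.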

How the data were processed

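The 6 libraries were made from 2 ng of total RNA each with SMART-seq v2 and sequenced in pairs, per the labels' protocols. These also give an RNA integrity number above 7.9 and a spike-in at a 50000-fold dilution for all libraries. The deposited counts hold 0 spike-in rows, so levels could not be scaled to the spike-in. The deposited values are raw counts of reads on each gene, made by the authors with featureCounts 1.6.3 on GENCODE M22 exons, per the file headers. No option for pairs, strand, multi-mapped or multi-gene reads appears there, so by default mates were counted separately, strand was ignored, and reads on overlapping exons or several places were left out. STAR and GRCm38 come from the submitters' processing notes, which give no version for STAR. Overlapping exons touched 15 members, and 4 (Aimp2, Iars2, Aars and Fars2) by over 10% of their exon bases.

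Of 55487 gene identifiers, 55394 matched GENCODE M21 symbols and 93 did not, and 33984 had no counts. Genes passing filterByExpr in edgeR 4.0.16 (R 4.3.3, minimum count 10, minimum total 15) were scaled by TMM and tested with the robust quasi-likelihood test without covariates, over all 6 libraries, with Benjamini-Hochberg adjustment over 13140 genes and a threshold of 0.05. Each SE is the absolute log2 fold change over the square root of its F statistic. A floor of 3 counts was 0.0908 to 0.126 CPM and covers counting error only. The scripts were tested on simulated data. Alternatives were the Wald test of DESeq2 1.42.0, limma-voom (limma 3.58.1), and the edgeR test with RLE scaling factors in place of TMM. Further ones were library sizes alone, 2 other count filters, a threshold of 0.01, and leaving out each library.

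Members and lists were chosen with earlier results of these data known. Every member is accounted for. Values per library were given for the 14 called members with the smallest p and separate groups, for the 3 members highest per kilobase in each enzyme class, and for others where the text turns on them. Each list names up to 4 called genes with the smallest p, plus Atf4, Ddit3 and Asns. Wars, Farsa, Ears2, Mars2, Eef1e1, Slc7a11, Eif2ak4, Ppp1r15a and Ddit4 were added after their values were seen. Promoters are those of RefSeq, GRCm38.p6. A comparison of protein sequences was not made.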

Additional observations from a re-analysis of the deposited data

How the results depend on the processing

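Of the 15 members called higher, 12 kept their call in all 13 alternative settings, and Sars, Farsb and Kars lost it in 5, 8 and 9. None of the 15 changed sign. The cytosolic count ran from 11 to 15, and the median log2 fold change of the cytosolic members was 0.58 without Ly6Chi-derived replicate 2, and 0.58 to 0.71 over single-library omissions, against 0.68. DESeq2's Wald test gave 3 mitochondrial members higher in place of 1, and 1176 genes lower in place of 761. A threshold of 0.01 gave 454 genes higher, 331 lower and 24 genes of the pathway lists higher, in place of 859, 761 and 37. Leaving out 1 library gave 531 to 750 genes higher and 445 to 742 lower, with 564 higher without TpMo-derived replicate 3 and 531 higher without Ly6Chi-derived replicate 2, and 474, 445 and 471 lower without Ly6Chi-derived replicates 1, 2 and 3. The count of members lower, and of mitochondrial members lower, was 0 to 1, the 1 being Mars2 without Ly6Chi-derived replicate 3. The cause of these moves was not tested.

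In 8 uncalled members the sign changed. Over single-library omissions, the log2 fold change ran from -0.11 to 0.11 in Farsa, -0.16 to 0.011 in Fars2, -0.32 to 0.18 in Wars2, -0.17 to 0.10 in Aars2, -0.14 to 0.068 in Nars2, -0.23 to 0.15 in Pars2, -0.14 to 0.057 in Aimp2 and -0.13 to 0.11 in Aimp1. Nars2 was 0.0062 with limma-voom. Pars2 was -0.045 with library sizes alone, -0.0041 with no count filter, -0.0010 with at least 5 CPM in 3 libraries and -0.011 with limma-voom. Aimp1 was -0.042 with library sizes alone and -0.0021 with no count filter. Library sizes alone moved the median of all genes by -0.049. No paired analysis was possible because the labels carry no replicate numbers that pair libraries across the groups. The lowest count of a member in a library was 111, in Vars2.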
